A study of Mus musculus with 9 samples.

Results

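The genes described here are those of the circadian clock in mouse tail skin. They were chosen by function as a list of 10 genes (Ciart, Per1, Per2, Per3, Dbp, Nr1d1, Nr1d2, Arntl, Cry1 and Cry2), around Ciart, which was itself selected on its values in these arrays because it was lower in both operated states. Of the 10 listed genes, 6 were measured (Ciart, Per3, Cry1, Cry2, Nr1d2 and Arntl), by 8 cDNA clones that had a value on all 9 arrays. They are 6 of the 8644 genes that could be compared in the series. Cry1 and Nr1d2 had 2 clones each, and the other genes had 1. Per1, Per2 and Nr1d1 had no clone under their names in the annotation used here. Dbp, a transcription factor under direct control of the clock, was named only on 5 clones that carry the names of other genes as well, and is not analysed here. A further 5 clones that name Arntl together with another gene were also left out.

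Skin was taken from the tails of female hairless SKH-1 mice. In lymphedema, the tail skin was cut in a ring 16 mm from the base and the main lymphatic trunks, made visible with methylene blue, were cauterized. Sham mice had the same incision and dye without cautery, and normal mice had no operation. The mice were described as 3 weeks of age and were killed on day 14, and RNA came from skin of the distal tail. Each state had 9 mice in 3 pools of 3, and each pool was hybridized to 1 two-color array against RNA of whole embryos at stage e17.5. The sham arm separates the incision from the lymphatic injury, and the pooling hides differences between single mice. The hour of day at which tissue was taken is not given in the sources used here.

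The clock is a loop of transcription factors. ARNTL (also named BMAL1) pairs with CLOCK or NPAS2 and activates genes through E-boxes, among them the Per and Cry genes, Ciart and the Nr1d genes. The PER and CRY proteins, and CIART, then repress that pair, while the NR1D proteins repress Arntl through ROR elements and the factors DBP and TEF act on D-boxes. In mouse tissues, skin included, many E-box and D-box genes peak at times of day nearly opposite to Arntl. In skin the loop runs in keratinocytes, fibroblasts and hair follicles.

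Elements of this loop can be read in the sequence before the starts of some members. The windows below cover the 250 bases before the start of 4 members, from RefSeq on GRCm38.p6, all on the minus strand and written 5′ to 3′ along the gene. They are shown because each holds a match among the 3 motifs searched. Capitals mark the E-box CACGTG, the D-box TTATGTAA and the core of the ROR element, AGGTCA. The windows lie at chr3:95882229-95882478 (Ciart), chr4:151044666-151044915 (Per3), chr10:85185055-85185304 (Cry1) and chr14:18239107-18239356 (Nr1d2).
Ciart: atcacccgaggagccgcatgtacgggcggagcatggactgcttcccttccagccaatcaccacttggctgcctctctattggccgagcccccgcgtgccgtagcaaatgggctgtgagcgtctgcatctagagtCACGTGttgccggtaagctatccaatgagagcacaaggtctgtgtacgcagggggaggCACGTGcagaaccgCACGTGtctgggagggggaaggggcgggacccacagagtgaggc
Per3: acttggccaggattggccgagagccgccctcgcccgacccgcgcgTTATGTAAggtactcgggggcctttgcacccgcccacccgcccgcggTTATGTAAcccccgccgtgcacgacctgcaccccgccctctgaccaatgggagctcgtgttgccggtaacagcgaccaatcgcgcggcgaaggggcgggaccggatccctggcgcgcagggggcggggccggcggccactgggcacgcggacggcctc
Cry1: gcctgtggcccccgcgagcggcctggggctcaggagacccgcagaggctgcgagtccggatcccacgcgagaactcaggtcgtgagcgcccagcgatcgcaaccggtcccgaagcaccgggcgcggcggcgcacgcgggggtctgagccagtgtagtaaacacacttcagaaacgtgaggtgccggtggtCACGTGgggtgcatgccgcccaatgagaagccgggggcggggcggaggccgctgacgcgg
Nr1d2: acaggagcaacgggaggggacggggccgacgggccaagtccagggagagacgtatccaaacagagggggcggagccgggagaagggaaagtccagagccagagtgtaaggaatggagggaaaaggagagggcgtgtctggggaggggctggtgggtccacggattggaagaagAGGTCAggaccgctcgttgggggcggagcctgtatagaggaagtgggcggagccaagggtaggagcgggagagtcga

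The Ciart window held 3 E-boxes, which began 116, 58 and 44 bases before the start. Both strands were searched in 32841 windows of this length, of which 6.02% held an E-box and 20 windows (0.0609%) held 3 or more. The Cry1 window held 1 E-box, 60 bases before the start. The Per3 window held 2 D-boxes, at 205 and 158 bases, where 0.819% of all windows held a D-box and 6 windows (0.0183%) held 2 or more. The Nr1d2 window held 1 copy of AGGTCA, which 14% of windows held. None of the 3 motifs was found in the windows of Cry2 and Arntl. The motifs do not overlap each other, and a match describes the letters only.

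**Figure D1:**
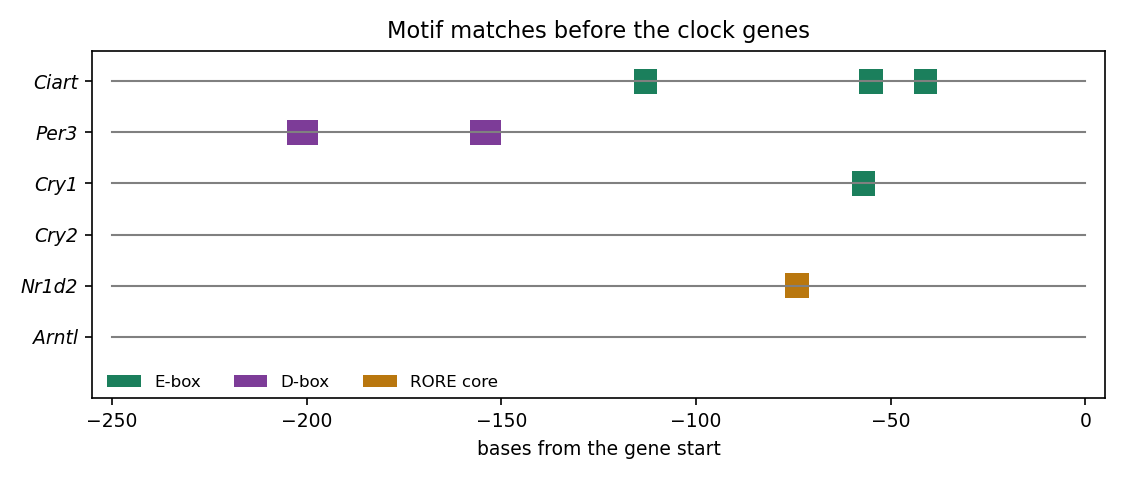
Matches to 3 motifs in the 250 bases before each measured clock gene (horizontal axis, bases from the gene start). Green bars are E-boxes, purple bars D-boxes and the brown bar the core of a ROR element, and Ciart is the gene with 3 E-boxes.

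Values are log2 ratios of tail skin over embryo RNA, with each array centered on its median, so that 0 is the median feature of an array and a difference of 1 is a doubling in size. The log base of the deposited ratios is not stated and was read as 2. The labels and the methods of the study assign the dyes differently, so the direction was read from the arrays: 14 genes typical of embryos had array means of −3.87 to −3.30 and 10 keratinocyte genes had means of 1.91 to 2.42 once the sign was turned. Because each ratio has the embryo as its base, levels are compared between states and not between genes. In whole skin, fewer cells of a type and less RNA per cell cannot be told apart. The normal arrays and lymphedema array 1 shared a pattern of missing features. On those 4 arrays alone 186 features were measured, and on the other 5 alone 1 was. Each member's values against normal skin were also computed with this array set as a block. Lymphedema array 1 is the only operated array in the set of the normal arrays. Any value against normal skin from that fit therefore rests on this 1 pool, and set and pool cannot be told apart.

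Ciart, the repressor that binds the ARNTL and CLOCK pair, was lower in both operated states. The 3 lymphedema pools had log2 ratios of −0.181, 0.154 and 0.088. The sham pools had 0.666, 0.14 and −0.139, and the normal pools had 1.21, 1.90 and 2.08. Every operated pool lay below every normal pool, and the lymphedema and sham pools overlapped. The mean was 0.0203 ± 0.178 in lymphedema, 0.222 ± 0.409 in sham and 1.73 ± 0.459 in normal skin (SD, n = 3 each). Ciart was thus 3.27-fold lower in lymphedema than in normal skin (log2 difference −1.71, SE 0.264) and 2.84-fold lower in sham than in normal skin (−1.51, SE 0.264). No test is given, since the gene was picked for this pattern. Lymphedema and sham skin differed by −0.20 (95% interval −0.78 to 0.38), and without sham replicate 1 by 0.0198.

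Ranked by difference among the 8644 genes, Ciart stood at place 6 from the lowest in lymphedema against normal skin and at place 4 in sham against normal skin. These places come from the same values that led to the choice of Ciart, and are a description only. Both comparisons share the normal pools. Groups without overlap were frequent over all genes: 33.7% of genes had none between lymphedema and normal skin, and 12.8% between sham and normal skin. The Ciart clone also varied more within a state than most genes, with a within-group SD of 0.370 against a median of 0.271, and 76.0% of genes varied less. Within the array set of the normal arrays, lymphedema array 1 gave −0.181 and the normal arrays 1.21 to 2.08. With the set as a block the differences were −1.91 for lymphedema and −1.81 for sham against normal skin, and both rest on lymphedema array 1.

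**Figure D2:**
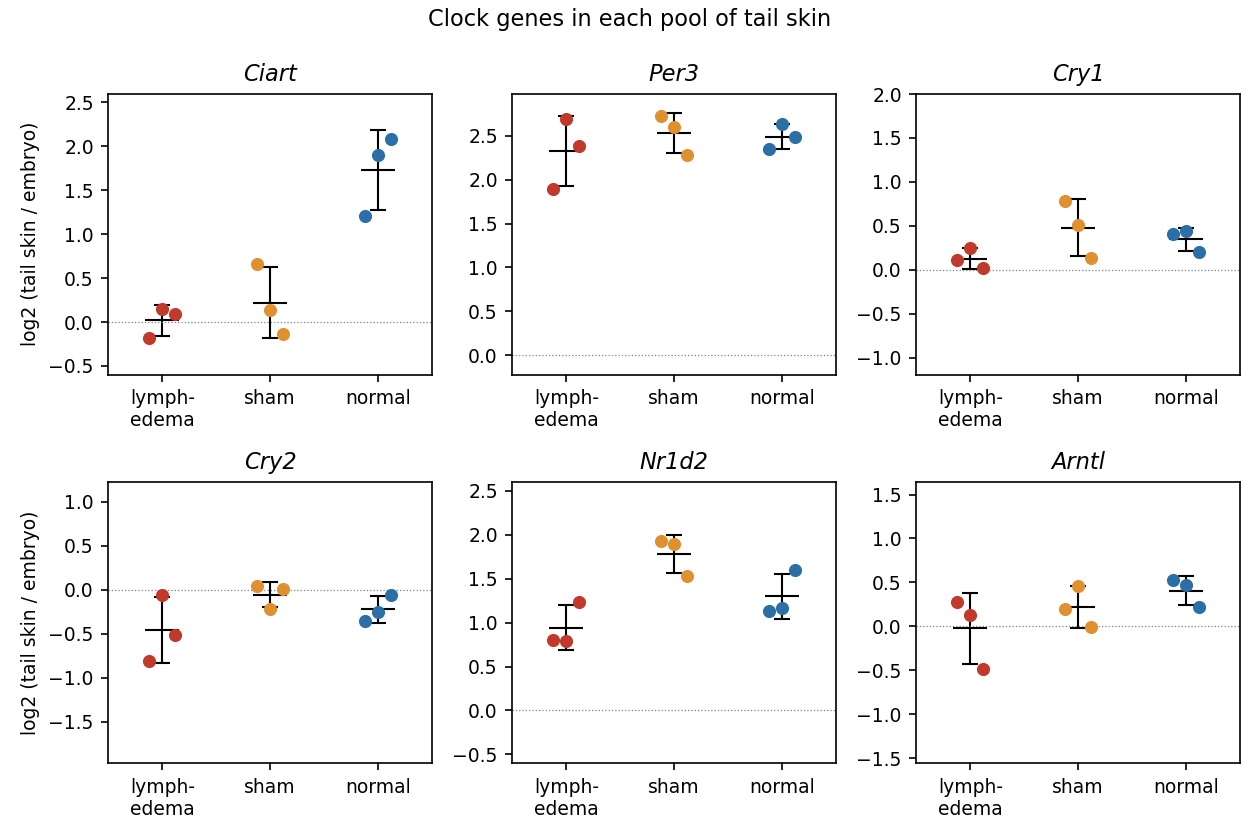
Log2 ratio of tail skin over embryo (vertical axes, equal spans, different midpoints) for the 6 measured clock genes. Each point is 1 pool of 3 mice in the order 1 to 3, bars are the mean ± SD, and only the Ciart panel has all operated pools below all normal pools.

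The other 5 members, unlike Ciart, were tested. None was called in any comparison by limma with Benjamini-Hochberg adjustment over all genes at 0.05, two-sided. Over all genes the test called 297 genes (3.44%) between lymphedema and normal skin, 0 (0.0%) between sham and normal skin and 2 (0.0231%) between lymphedema and sham. The sham comparison had 685 genes at an unadjusted p under 0.05. In lymphedema against normal skin all 5 had a difference below 0, from −0.43 to −0.16 with a median of −0.24, where the median over all genes was 0.10. In sham against normal skin 1 of 5 was below 0 and the median was 0.13, against 0.06 over all genes. In lymphedema against sham all 5 were again below 0, with a median of −0.35 against 0.06 over all genes. The unadjusted p was under 0.05 for 0, 1 and 1 of the 5 in these comparisons, and Nr1d2 was the gene both times.

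Per3, the third of the Period repressors, did not pass the test against normal skin in either operated state. Its small difference in lymphedema changed sign without lymphedema pool 1. The lymphedema pools had log2 ratios of 1.90, 2.69 and 2.39. The sham pools had 2.72, 2.60 and 2.28, and the normal pools 2.35, 2.64 and 2.48. The 3 states overlapped, and lymphedema pool 1 was the lowest of the 9. Lymphedema and normal skin differed by −0.16 (SE 0.222, limma adjusted p = 0.727, 95% interval −0.65 to 0.32). Sham and normal skin differed by 0.04 (adjusted p = 0.978, 95% interval −0.44 to 0.53). With the array set as a block the differences from normal skin were −0.59 in lymphedema and −0.60 in sham, and both rest on lymphedema pool 1. Without that pool lymphedema and normal skin differed by 0.0523.

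The cryptochromes repress the pair of activators together with the PER proteins. Cry1, as the mean of its 2 clones, had log2 ratios of 0.116, 0.251 and 0.0165 in the lymphedema pools. The sham pools had 0.787, 0.505 and 0.139, and the normal pools 0.404, 0.440 and 0.197. Lymphedema skin was lowest on average, but its highest pool lay above the lowest pool of each other state. The difference was −0.22 from normal skin (SE 0.194, limma adjusted p = 0.561) and −0.35 from sham skin (adjusted p = 0.697). With the array set as a block Cry1 differed from normal skin by −0.23 in lymphedema and 0.11 in sham. The 2 Cry1 clones were only weakly alike over the 9 arrays (Pearson r = 0.235, as a description). The first clone gave −0.53 in lymphedema against sham with no overlap (adjusted p over all features = 0.711), and the second gave −0.17 with overlap.

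Cry2 had log2 ratios of −0.81, −0.056 and −0.509 in the lymphedema pools. The sham pools had 0.046, −0.222 and 0.015, and the normal pools −0.355, −0.254 and −0.058. Lymphedema pool 2 stood with the normal and sham pools, and the other lymphedema pools were below all of them. The difference was −0.24 from normal skin (SE 0.209, limma adjusted p = 0.561), and −0.40 from sham skin (adjusted p = 0.689, 95% interval −0.86 to 0.05). Sham against normal skin gave 0.17 (adjusted p = 0.889). With the array set as a block Cry2 differed from normal skin by −0.59 in lymphedema and −0.36 in sham.

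Nr1d2, which encodes the repressor REV-ERB beta, was the member that set lymphedema and sham skin furthest apart. The lymphedema pools had log2 ratios of 0.806, 0.787 and 1.24. The sham pools had 1.92, 1.89 and 1.54, and the normal pools 1.14, 1.17 and 1.59. All lymphedema pools lay below all sham pools, while the normal pools lay between and overlapped both. The difference of lymphedema from sham was −0.84 (SE 0.206, 95% interval −1.29 to −0.39), or 1.79-fold lower, with an unadjusted limma p of 0.00169 and an adjusted p of 0.442. It did not pass, and 10.3% of all genes had no overlap in that comparison. Sham differed from normal skin by 0.49 (95% interval 0.03 to 0.94, adjusted p = 0.573), and lymphedema from normal skin by −0.35 (−0.81 to 0.10, adjusted p = 0.360). With the array set as a block Nr1d2 gave −0.77 for lymphedema against sham, 0.28 for sham against normal skin and −0.49 for lymphedema against normal skin.

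Both Nr1d2 clones had the same direction. Between lymphedema and sham the first gave −0.68 and the second −1.004, each with no overlap (adjusted p over all features 0.617 and 0.497). Over the 9 arrays the clones had a Pearson r of 0.636. Leaving out each array in turn gave −0.99 to −0.76 for the gene. The plot of Ciart against Nr1d2 shows that the 2 genes ordered the states differently: sham skin was low for Ciart and high for Nr1d2.

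**Figure D3:**
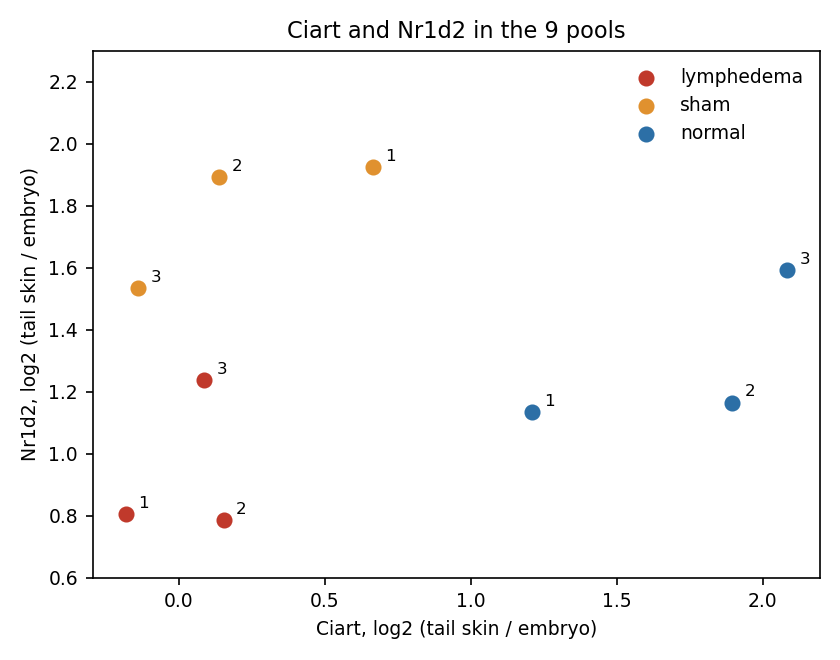
Ciart (horizontal axis) against Nr1d2 (vertical axis), both as log2 ratio of tail skin over embryo, in 9 pools numbered by replicate. The lymphedema pools are low on both axes, the sham pools are low for Ciart and at 1.54 to 1.92 for Nr1d2, and the normal pools are at 1.21 or more for Ciart.

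Arntl, the activator of the loop, had log2 ratios of 0.281, 0.13 and −0.482 in the lymphedema pools. The sham pools had 0.203, 0.463 and −0.008, and the normal pools 0.523, 0.475 and 0.224. The states overlapped, and lymphedema pool 3 was the lowest. Lymphedema differed from normal skin by −0.43 (SE 0.224, limma adjusted p = 0.307, 95% interval −0.92 to 0.06), sham from normal skin by −0.19 (adjusted p = 0.885) and lymphedema from sham by −0.24 (adjusted p = 0.834). With the array set as a block Arntl differed from normal skin by −0.13 in lymphedema and 0.27 in sham. Arntl and the other members, which it activates, were therefore on the same side of 0 in lymphedema against normal skin, with no call among the tested members.

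**Figure D4:**
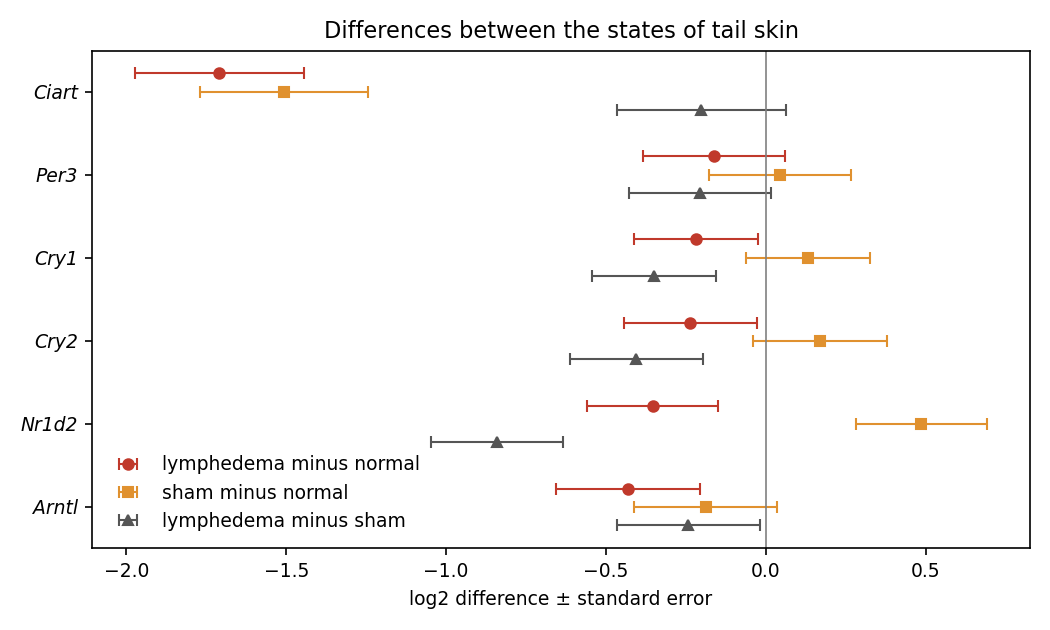
Log2 differences between states (horizontal axis) with standard errors for the 6 measured clock genes. Ciart stands at −1.71 and −1.51 for the operated states against normal skin, and the other differences lie between −0.84 and 0.49.

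The members were also set against the wider loop. Across the 9 arrays, which fall into 3 states, the Pearson r of Ciart with the other members ran from 0.129 (Nr1d2) to 0.435 (Arntl), and the highest r among members was 0.737, of Per3 with Cry2. The mean of the 4 other measured E-box and D-box genes (Per3, Tef, Nr1d2 and Bhlhe40) was 0.916 to 1.37 in lymphedema, 1.37 to 1.80 in sham and 1.23 to 1.38 in normal pools. The 3 measured genes listed as driven through ROR elements were Arntl, Npas2 and Cry1. Their mean was 0.171 to 0.406 in lymphedema, 0.264 to 0.427 in sham and 0.241 to 0.493 in normal pools. These classes were set as lists and not by the windows above, in which Cry1 held an E-box and Nr1d2 held AGGTCA. For the first class the sham pools averaged highest. However, sham pool 3 (1.369) lay below normal pool 2 (1.376) and just above lymphedema pool 2 (1.3655). The lymphedema and normal ranges of that class overlapped. For the second class the ranges of the 3 states overlapped. Whether the hour of sampling differed between the states was not tested, since no hour is given.

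Beyond the members, 35 of 58 listed genes of the clock network were measured. In lymphedema against normal skin 1 passed upward and 0 downward, where 3.44% of all genes passed. The median difference was 0.11, against 0.10 over all genes. The unadjusted limma p was under 0.05 for 5 of the 35, against 1776 of all 8644 genes. In sham against normal skin and in lymphedema against sham none passed (0 calls by limma), with medians of 0.17 and 0.02. In these 2 comparisons 3 and 2 of the 35 had an unadjusted limma p under 0.05, against 685 and 643 of all 8644 genes. No gene of the 35 differed by 1 log2 unit or more from normal skin in either operated state. The lowest difference among them in lymphedema was −0.62, for Rora (adjusted p = 0.491).

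Among the activators and the PAR bZIP factors, Npas2, a partner of ARNTL, differed by 0.43 in lymphedema and −0.02 in sham against normal skin, with limma adjusted p of 0.460 and 0.989. Tef, a factor that acts on D-boxes, gave −0.20 and 0.15 (adjusted p 0.629 and 0.909). Bhlhe40, a repressor that binds E-boxes, gave 0.28 and 0.42 (adjusted p 0.475 and 0.645). Rora, the activator at ROR elements, had 1.78, 1.65 and 1.53 in lymphedema pools. Its sham pools had 3.29, 1.65 and 0.786, and its normal pools 1.97, 2.38 and 2.47. Lymphedema and normal pools of Rora did not overlap, and the sham pools spread on both sides of them. That difference did not pass (limma adjusted p = 0.491), and 33.7% of all genes had no overlap in that comparison. Of 20 measured kinases, ubiquitin ligases and partners of the clock, 0 passed in any of the comparisons. Their medians were 0.05 in lymphedema and 0.14 in sham against normal skin, and the largest difference in lymphedema was that of Btrc, an F-box protein that marks PER proteins for degradation (0.48, adjusted p = 0.199).

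Of the 11 measured rhythmic output genes, 9 had a difference above 0 in lymphedema and 10 in sham against normal skin. Their medians were 0.32 and 0.29, against 0.10 and 0.06 over all genes. The mean of these genes was 0.241 to 0.292 in lymphedema pools, 0.179 to 0.481 in sham pools and −0.111 to 0.128 in normal pools. Lack of overlap with normal skin was frequent over all single genes, at 33.7% in lymphedema and 12.8% in sham. It was mostly upward, with 2036 genes higher and 881 lower in lymphedema and 839 higher and 266 lower in sham. Of the 11, 1 passed. Ppard, a nuclear receptor for fatty acids, had 1.51, 1.79 and 1.70 in lymphedema pools, 1.37, 0.664 and 0.923 in sham pools and 0.659, 0.620 and 0.817 in normal pools. It rose by 0.97 in lymphedema against normal skin (SE 0.201, limma adjusted p = 0.0291) and gave 0.29 in sham (adjusted p = 0.779). The Ppard call was lost with the array set as a block (0.81, adjusted p = 0.349), with the replicate block (adjusted p = 0.0535) and without any one of the normal or lymphedema arrays (adjusted p 0.0719 to 0.140).

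Noct, which encodes the rhythmic enzyme nocturnin, had 0.755, 0.186 and −0.028 in lymphedema pools. Its sham pools had 0.272, 0.786 and 0.0205, and its normal pools −0.395, −0.494 and −0.168. All operated pools were above all normal pools, opposite to Ciart, but the differences of 0.66 and 0.71 did not pass (limma adjusted p 0.169 and 0.499). Tsc22d3, which is induced by glucocorticoids, differed by −0.54 in lymphedema and 0.46 in sham against normal skin and by −1.004 between lymphedema and sham (adjusted p = 0.648), with states that overlapped.

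**Figure D5:**
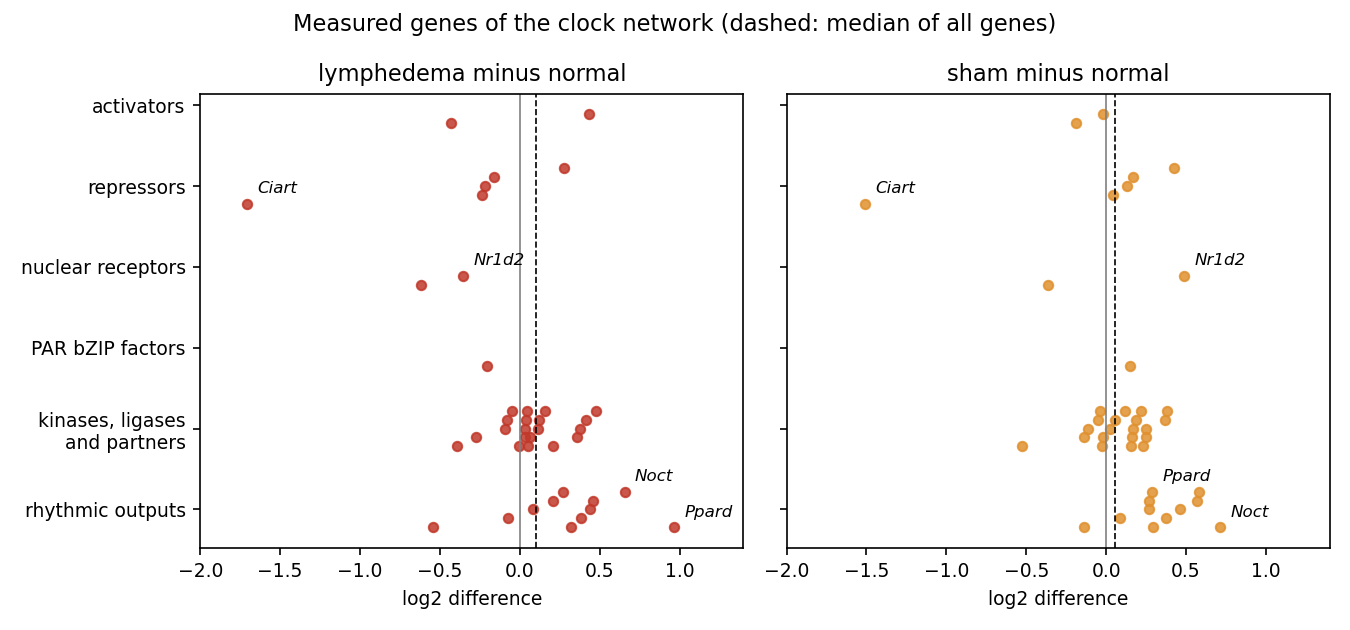
Log2 difference from normal skin (horizontal axes) of each measured gene of the clock network in lymphedema (left) and sham (right), by role. Vertical spread within a role only separates points, the dashed line is the median of all genes (0.10 and 0.06), and Ciart is the single point below −1 in both panels.

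The genes most like Ciart over the 9 arrays, by Pearson r and as a description, were Aak1 (0.914), Snx21 (0.883), Krtap3-3 (0.881), Siah2 (0.879) and Gad1 (0.878). Krtap3-3, a keratin-associated protein of the hair shaft, had 4.73, 4.60 and 4.71 in lymphedema pools, 4.80, 4.79 and 4.55 in sham pools and 5.38, 5.62 and 5.18 in normal pools. The genes most opposite to it were Hs1bp3 (−0.981), Lce3e (−0.955), Myl12b (−0.953), Prps1 (−0.947) and Mbd3l2 (−0.946). Lce3e, a protein of the cornified envelope, had 2.59, 2.45 and 2.06 in lymphedema pools, 2.06, 2.54 and 2.77 in sham pools and 1.59, 1.19 and 1.30 in normal pools. None of these 10 genes is in the clock lists. Those lists hold only the 6 members and 35 other measured genes among 8644, so none would be likely in any 10 genes.

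Markers of several cell types also differed in level between lymphedema and normal skin. No marker of the lists below passed in sham against normal skin or in lymphedema against sham, and with the array set as a block no gene of the whole table passed between lymphedema and normal skin (0 calls by limma), so that the calls below were lost there. Macrophage and monocyte markers (13 of 14 measured, 7 called higher in lymphedema against normal skin) had array means of 0.719 to 0.780 in lymphedema, −0.670 to 0.686 in sham and −0.615 to −0.513 in normal pools. Neutrophil markers (6 of 9 measured, 4 called higher) had means of 0.974 to 1.27 in lymphedema, −0.588 to 0.673 in sham and −0.975 to −0.838 in normal pools. Sham pools 1 and 2 were below 0 for both lists, at −0.245 and −0.670 for macrophage markers and −0.588 and −0.222 for neutrophil markers, and had Ciart at 0.666 and 0.14. Sham pool 3 had marker means of 0.686 and 0.673 and Ciart at −0.139. Keratinocyte markers (10 of 15 measured, 0 called) had means of 2.09 to 2.42 in lymphedema, 2.13 to 2.32 in sham and 1.91 to 2.25 in normal pools. Fibroblast markers (7 of 9 measured, 1 called higher) had means of −0.562 to −0.430 in lymphedema, −0.965 to −0.034 in sham and −1.20 to −1.13 in normal pools, and all 7 had differences above 0 in both operated states, with medians of 0.66 in lymphedema and 0.45 in sham. Endothelial markers (3 of 7 measured, 2 called higher) had means of 0.225 to 0.419 in lymphedema, −0.436 to 0.210 in sham and −0.844 to −0.473 in normal pools. Skeletal muscle markers (7 of 12 measured, 0 called) had means of −4.59 to −3.87 in lymphedema, −4.31 to −2.73 in sham and −4.73 to −4.22 in normal pools, and sham pool 3 was the highest. Of 17 markers of hair follicle and sebaceous gland, 4 were measured, with a median difference of 0.53 in lymphedema against normal skin. The hair protein gene Krtap13 fell in lymphedema (−1.73, limma adjusted p = 0.00593) and gave −0.90 in sham (adjusted p = 0.297), while Krt27 (0.86), Krt71 (0.74) and Lhx2 (0.33) had differences above 0 in lymphedema and did not pass. The part of these cell types in the Ciart values was not tested.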

How the data were processed

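RNA of distal tail skin from lymphedema, sham and normal mice was hybridized to two-color cDNA arrays, with 3 pools of 3 mice for each state. Per the labels and methods, the authors extracted features with GenePix, subtracted background, normalized the dyes and tested with SAM. The deposited table holds 1 ratio per feature and array, read as log2, with the log base and centering not stated. The labels place tail RNA in Cy5 and the methods in Cy3. The sign was turned to give tail skin over embryo.

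Of 42624 features, 20678 were named by 1 gene, 953 by several and 20993 not at all in the annotation used here. Between 1.34% and 12.6% of the features of an array had no value. The 15723 features with 1 gene and a value on all 9 arrays gave 8644 genes, with clones of a gene averaged. No array was left out or imputed. Each array was centered on its median and fitted with limma 3.58.1 in R 4.3.3 (lmFit and eBayes, group as the only term, Benjamini-Hochberg over all genes at 0.05). The fit was tested on simulated data. SAM was not run. Figures used matplotlib 3.10.9 in Python 3.11.15. The number of arrays limits the precision, and each p-value sets a difference of group means against the spread between pools.

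The members and lists were chosen with earlier results of these data known. Named genes were every member, every listed clock gene that passed, up to 4 examples per list by size of the difference between lymphedema and normal skin, and the 5 genes most and 5 least like Ciart. Egr1 was chosen after its values were seen. Alternatives changed the centering, scaling, missing-value filter, clone choice, arrays fitted and blocks. One of them, centering on complete features, was chosen after seeing the data.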

Additional observations from a re-analysis of the deposited data

How the results depend on the processing

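Each result was recomputed under 18 alternatives, 9 of which left out 1 array. The 5 tested members had 0 calls in every comparison under all 18. With 1 array left out, Ciart against normal skin was −1.97 to −1.53 in lymphedema and −1.77 to −1.33 in sham. Its direction could not turn there, since all operated pools lay below all normal pools. Ciart was also picked for being lower in both operated states, so its kept direction is a description only. Lymphedema against sham ran from −0.383 to 0.0198, the highest value without sham replicate 1. Nr1d2 kept its direction in all 3 comparisons and alternatives. The members that turned were small in size, and the cause was not tested. Per3 in lymphedema against normal skin was 0.16 with scaling to one median absolute deviation and −0.346 to 0.0523 with 1 array left out. Per3 in sham against normal skin was −0.0152 with that scaling, −0.19 with quantile normalization, −0.60 with the array set as a block and −0.0517 to 0.170 with 1 array left out. Per3 in lymphedema against sham was 0.18 with the scaling, 0.0093 with the array set as a block and −0.389 to 0.0093 with 1 array left out. In sham against normal skin, Arntl was 0.27 and Cry2 −0.36 with the array set as a block, and Cry1 was −0.0247 to 0.299 with 1 array left out.

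The numbers of the pools did not pair them: 9 pairs of arrays with the same number had correlations of their deviations from −0.244 to 0.279, and 1 was over 0.1. The replicate block is balanced over the states and so could not change the Ciart differences of −1.71 and −1.51 against normal skin. With it the members had 0 calls and the genes called between lymphedema and normal skin were 145. The 297 genes called there were 183 with centering on complete features, 210 without centering, 189 with 1 clone per gene, 842 with only the arrays of the 2 groups, 0 with the array set as a block, and 11 to 623 with 1 array left out. The share called higher, 245 of 297, was 135 of 183 without incomplete features in the centering, 154 of 210 without centering and 191 of 263 with quantile normalization. The 2 genes called between lymphedema and sham were 10 with the scaling, 1 without centering, with quantile normalization, with 2 of 3 values per group or with either block, 0 with only the arrays of those groups and 0 to 96 with 1 array left out. Sham against normal skin had 0 to 12 genes with 1 array left out. Signal over background was not used here.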

Other observations

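Genes that respond within hours to a stimulus were also listed. Of 12 immediate early genes 10 were measured, with a median difference from normal skin of 0.05 in lymphedema and 0.45 in sham, and 0 were called. Their array means were 0.795 to 0.877 in lymphedema, 0.992 to 1.41 in sham and 0.706 to 0.981 in normal pools. The sham pools lay above all others, but sham pool 3 (0.992) was close to normal pool 1 (0.981). Over all genes the medians against normal skin were 0.10 in lymphedema and 0.06 in sham. Of all single genes, 12.8% had no overlap between sham and normal skin and 10.3% between lymphedema and sham. Egr1, a transcription factor induced by growth factors and injury, had 0.824, 0.566 and 0.442 in lymphedema pools, 1.60, 1.68 and 1.20 in sham pools and 0.875, 0.414 and 0.218 in normal pools. The difference of sham from normal skin was 0.99 (limma adjusted p = 0.216), the highest of the 10 measured genes. In that comparison 8 of the 10 lay above 0 and 2 below, Atf3 at −0.42 and Egr2 at −0.09.

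Of 12 glucocorticoid responsive genes 8 were measured, with medians of −0.01 in lymphedema and 0.28 in sham against normal skin and 0 called. Their array means overlapped between states, at −0.0708 to 0.470 in lymphedema, 0.453 to 0.637 in sham and 0.048 to 0.525 in normal pools. Fkbp5, a chaperone partner of the glucocorticoid receptor, was 0.249, 0.375 and 0.205 in sham pools and −0.765, −0.510 and −0.136 in normal pools, a difference of 0.75 (limma adjusted p = 0.405). Its lymphedema pools had −0.4165, 0.3795 and −0.068, so that lymphedema pool 2 lay above every sham pool. Nr1d2 had its highest mean in sham skin, with normal pool 3 (1.593) above sham pool 3 (1.5355). No test linked these genes to Nr1d2 or Ciart.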
